A study of Homo sapiens with 12 samples.

Results

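The 30 genes described here carry out or govern the activation of fatty acids and their beta-oxidation. They were chosen by name from the 58735 genes of the count table. Of the 30 genes, 7 act in activation and uptake, 18 in mitochondrial oxidation and 4 in peroxisomal oxidation, and PPARA is a transcriptional regulator. RNA was sequenced in 12 libraries of Ovcar8, an established cell line from a high-grade serous carcinoma of the ovary, in 4 groups of 3. All cells received lentivirus and were selected with 3 µg/ml puromycin for 2 to 3 days in medium with 5% serum. The groups were CCNE1 overexpression with hairpin 1 against TMLHE (shTMLHE 1), CCNE1 overexpression with hairpin 2 against TMLHE (shTMLHE 2), CCNE1 overexpression alone, and control cells. The hairpin groups thus carry the CCNE1 construct too and were set against CCNE1 overexpression, which itself was set against control. No group with a non-targeting hairpin was analysed here, so loss of TMLHE and the presence of a hairpin cannot be told apart, and the labels name neither the promoter of the constructs nor any clone.

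Fatty acids enter metabolism once acyl-CoA synthetases join them to coenzyme A. Long-chain acyl groups cross into mitochondria as carnitine esters, and TMLHE catalyses the first step of carnitine synthesis. Inside, acyl-CoA dehydrogenases, enoyl-CoA hydratases, 3-hydroxyacyl-CoA dehydrogenases and thiolases shorten the chain in cycles, and electrons pass through ETFA, ETFB and ETFDH to the respiratory chain. Peroxisomes run a related cycle on very long and branched chains, and PPARA, a nuclear receptor, is known in liver to induce genes of both cycles. The comparisons ask how the mRNAs of these steps differ with CCNE1 overexpression and, on top of it, with a hairpin against TMLHE.

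The promoters of HADHA and HADHB are shown because both genes encode subunits of 1 enzyme, the mitochondrial trifunctional protein, and are read in opposite directions from neighbouring starts. Their RefSeq starts lie 307 bases apart on chromosome 2, and the capitals mark the 194 bases, chr2:26244689-26244882, that both windows hold on opposite strands. Each window runs from 250 bases before to 50 bases after the RefSeq start, on GRCh38.p14, 5′ to 3′ on the gene's own strand. HADHA lies at chr2:26244583-26244882 on the minus strand and HADHB at chr2:26244689-26244988 on the plus strand.
HADHA: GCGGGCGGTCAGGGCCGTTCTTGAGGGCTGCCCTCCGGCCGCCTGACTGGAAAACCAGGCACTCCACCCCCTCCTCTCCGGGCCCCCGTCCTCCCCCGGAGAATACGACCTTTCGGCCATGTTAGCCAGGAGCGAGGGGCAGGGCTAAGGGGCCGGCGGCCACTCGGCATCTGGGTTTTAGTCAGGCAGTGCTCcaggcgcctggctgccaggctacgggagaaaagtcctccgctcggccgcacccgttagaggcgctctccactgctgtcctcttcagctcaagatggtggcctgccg
HADHB: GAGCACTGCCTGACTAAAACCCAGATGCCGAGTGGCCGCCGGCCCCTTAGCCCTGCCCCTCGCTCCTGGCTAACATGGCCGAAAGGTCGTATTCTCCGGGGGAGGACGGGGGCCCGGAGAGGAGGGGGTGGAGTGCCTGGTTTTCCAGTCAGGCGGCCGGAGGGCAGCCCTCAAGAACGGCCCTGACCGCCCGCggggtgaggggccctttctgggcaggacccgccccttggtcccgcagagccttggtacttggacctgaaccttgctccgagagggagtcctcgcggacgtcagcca

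The promoters of ACSL3 and ACSL4 are shown because these acyl-CoA synthetases were the members called higher in both hairpin groups. The ACSL3 window is chr2:222860786-222861085 on the plus strand and the ACSL4 window chrX:109733208-109733507 on the minus strand, and capitals mark a CCAAT box, found in ACSL3 75 bases before the start.
ACSL3: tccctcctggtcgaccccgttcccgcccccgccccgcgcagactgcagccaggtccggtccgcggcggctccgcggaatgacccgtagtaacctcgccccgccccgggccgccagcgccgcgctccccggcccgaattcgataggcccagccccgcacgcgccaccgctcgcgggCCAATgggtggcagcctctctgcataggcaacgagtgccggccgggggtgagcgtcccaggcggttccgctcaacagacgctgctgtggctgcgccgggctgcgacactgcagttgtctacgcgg
ACSL4: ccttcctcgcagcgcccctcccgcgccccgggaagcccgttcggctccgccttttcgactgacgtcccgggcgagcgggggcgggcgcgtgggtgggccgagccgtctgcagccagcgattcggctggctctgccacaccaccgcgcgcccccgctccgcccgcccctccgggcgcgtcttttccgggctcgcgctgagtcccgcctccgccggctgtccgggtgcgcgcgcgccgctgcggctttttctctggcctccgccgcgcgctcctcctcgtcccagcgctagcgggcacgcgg

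RefSeq promoter windows matched 25 of the 30 members; ACAD11, DECR1, ETFDH, EHHADH and ACAA1 had none. The ACSL3 and ACSL4 windows were 74% and 77.7% G and C, and those of HADHA and HADHB 67.7% and 68%. The median was 68% over the 25 members and 58.7% over the 35116 windows of the table. Motifs were searched on both strands as exact letters. The CCAAT box (CCAAT) was in 6 of the 25 members, ACAD10, ACSL3, ETFA, HADH, PPARA and SLC27A1, and in 34.6% of all windows. The cyclic AMP element (TGACGTCA) was in ACAD9 and ACOX3 and in 1.85% of all windows, and the E box (CACGTG) in ACAD9 and ACSF2 and in 7.26%. The ETS site (CCGGAAGT, 4.14% of all windows), the NRF1 palindrome (1.24%) and the PPAR direct repeat spaced by any 1 base (0.0228%) were in none of the 25 windows. In ACAD9 the cyclic AMP element began 158 and the E box 125 bases before the start, so they did not overlap.

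The libraries held 14054101 to 21457503 counts each, and the members took 0.206% to 0.232% of them. TMLHE averaged 0.956 ± 0.286 CPM in shTMLHE 1, 0.482 ± 0.241 in shTMLHE 2, 15.7 ± 2.69 in CCNE1 overexpression and 16.5 ± 1.62 in control (SD, n = 3 each), where CPM are edgeR's normalised counts, each relative to a library size that TMM factors made comparable. CCNE1 spanned 1220 to 1320 CPM in shTMLHE 1, 823 to 860 in shTMLHE 2, 963 to 1030 in CCNE1 overexpression and 31.6 to 34.1 in control. CCNE1 itself was thus called higher in shTMLHE 1 (log2 fold change 0.34 ± 0.03) and lower in shTMLHE 2 (-0.24 ± 0.03) than in CCNE1 overexpression, and the part of this in the members' values was not tested. Of 8 markers of serous ovarian epithelium, 6 passed the count filter and the list summed to 4310 to 8300 CPM, with PAX8 at 68.6 to 153 CPM, WT1 at no more than 0.952 and MUC16 at 0 counts throughout. Leukocyte and endothelial markers summed to no more than 2.98 and 3.86 CPM. The fibroblast list summed to 591 to 1590 CPM, almost all of it from COL1A1, while DCN had 0 counts in every library.

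The libraries are of bulk RNA, so fewer cells of a kind and less RNA per cell cannot be told apart. Of the 30 members, 29 had enough counts to be tested. ACAD11, an acyl-CoA dehydrogenase, had 0 to 9 counts per library and was not tested. Per kilobase of gene length, the hydratase ECHS1, the isomerase ECI1 and HADHA held the 3 highest member levels in every group. ECHS1 stood at 184 RPKM in shTMLHE 1, 130 in shTMLHE 2, 203 in CCNE1 overexpression and 233 in control, where RPKM are CPM per kilobase of the deposited gene length. ACSL4 was the 6th, 4th, 12th and 12th highest member in that order of groups, at 22, 34.6, 15.2 and 8.94 RPKM. ACSL5, ACADSB, ACAA2, EHHADH and ACSL1 were low, with group means of 0.0726 to 1.7 RPKM.

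With shTMLHE 1, 18 of the 29 members were called (edgeR's quasi-likelihood test, Benjamini-Hochberg adjusted p under 0.05 over all 15378 tested genes): 3 higher and 15 lower, against a background of 60.7% of all tested genes called, 30.4% higher and 30.3% lower. The members' 62.1% called is close to that background, while the direction is not evenly split. With shTMLHE 2, 23 were called, 4 higher and 19 lower, against a background of 73%, 36.8% higher and 36.2% lower. The median log2 fold change of the members was -0.15 and -0.60 with shTMLHE 1 and shTMLHE 2, and that of all tested genes was 0.03 in both. Both comparisons use the same CCNE1 libraries. Scaling by total counts moved the median of all genes up by 0.39 and 0.53 and gave 13 higher and 8 lower members with shTMLHE 1 and 12 higher and 13 lower with shTMLHE 2, so the number of members called lower depended on the scaling. By total counts 67.2% of all tested genes were called with shTMLHE 1, 51% higher and 16.2% lower, and 76.5% with shTMLHE 2, 54.1% higher and 22.4% lower. The share of the members' calls that were higher lay below that of all calls under both scalings. By total counts it was 61.9% of 21 and 48% of 25 with shTMLHE 1 and shTMLHE 2, beside 75.9% and 70.7% of all calls, and with TMM it was 16.7% of 18 and 17.4% of 23, beside 50% and 50.4%.

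**Figure D1:**
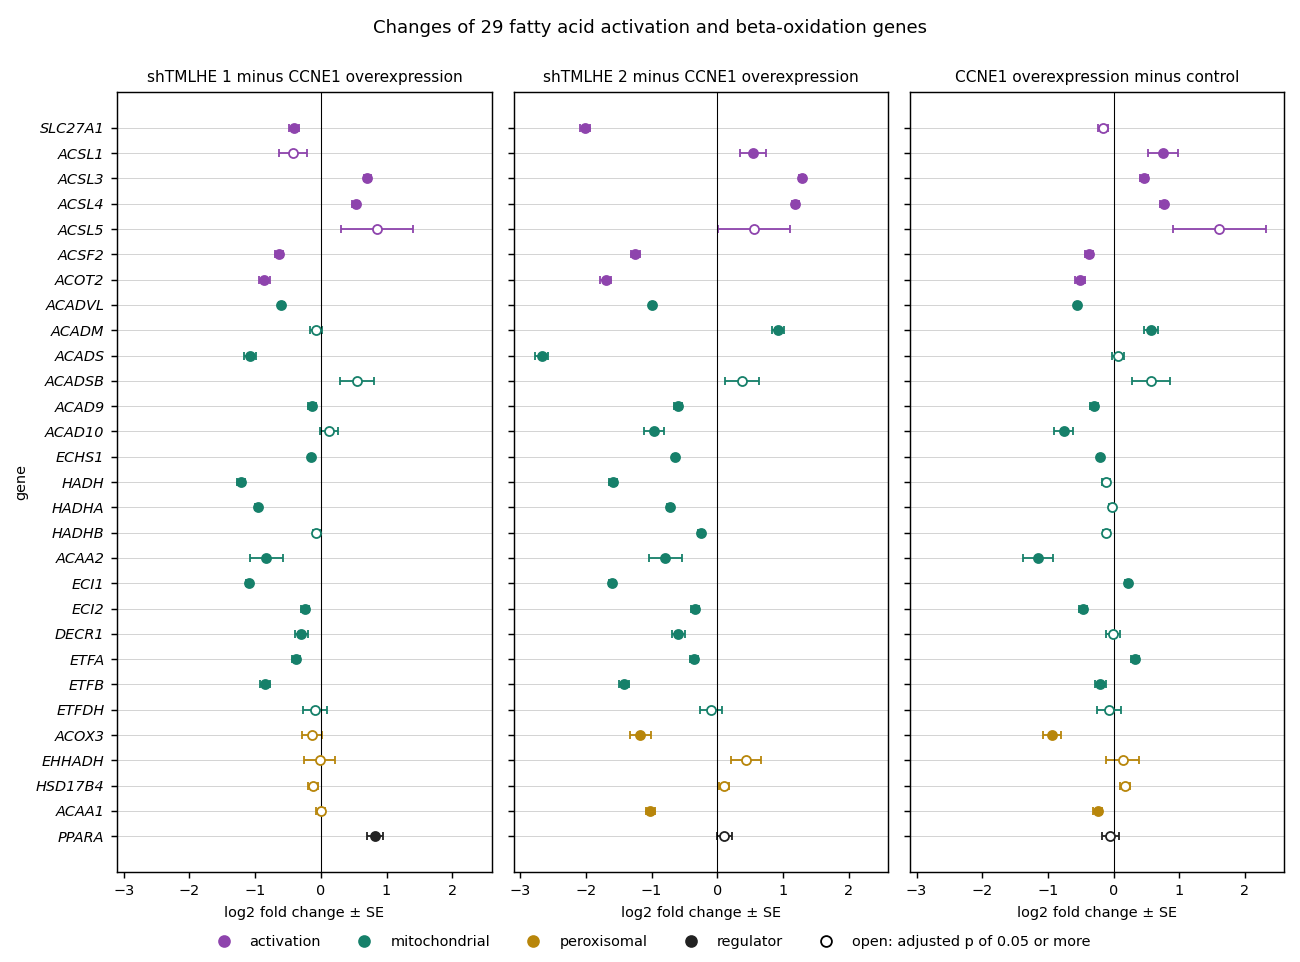
Log2 fold change (x axis, ± SE) of the 29 tested members (y axis) in shTMLHE 1 and shTMLHE 2 against CCNE1 overexpression and in CCNE1 overexpression against control, 3 libraries a group; filled points have an adjusted p under 0.05. Most mitochondrial genes lie left of 0 in both hairpin panels, while ACSL3 and ACSL4 lie right of 0 in all panels.

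Among the 7 genes of activation and uptake, 2 rose and 3 fell with shTMLHE 1, and 3 rose and 3 fell with shTMLHE 2. Their shares called, 71.4% and 85.7%, stand beside 60.7% and 73% of all tested genes. ACSL3, a long-chain acyl-CoA synthetase of the endoplasmic reticulum and lipid droplets, had 122, 119 and 110 CPM in shTMLHE 1, 177, 176 and 171 in shTMLHE 2, 74.4, 68.8 and 71.5 in CCNE1 overexpression, and 50.9, 49.8 and 55.1 in control. No 2 groups overlapped, and both hairpin groups lay above CCNE1 overexpression, which lay above control. ACSL3 rose by 0.71 ± 0.05 on the log2 scale with shTMLHE 1 (edgeR, adjusted p = 6.24e-15) and by 1.29 ± 0.05 with shTMLHE 2 (1.33e-23). ACSL4, which prefers polyunsaturated chains such as arachidonate, had 143, 143 and 136 CPM in shTMLHE 1, 221, 220 and 226 in shTMLHE 2, 93.8, 102 and 96.2 in CCNE1 overexpression, and 63.1, 53.7 and 55.2 in control. Its groups stood in the same order, again without overlap. It rose by 0.53 ± 0.05 (adjusted p = 5.69e-12) and by 1.19 ± 0.05 (4.33e-23) with shTMLHE 1 and shTMLHE 2.

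The longest annotated transcripts of both are poor in G and C, at 38.1% for ACSL3 and 37.4% for ACSL4. The 10% of tested genes with the lowest GC content, with a median of 37.1%, had a median log2 fold change of 0.64 with shTMLHE 1 and 1.27 with shTMLHE 2, about the size of the changes of these synthetases. With the trend of counts on GC content and gene length removed in each library, the change of ACSL4 was 0.01 ± 0.05 with shTMLHE 1 and 0.09 ± 0.04 with shTMLHE 2, and neither was called (edgeR, adjusted p = 0.897 and 0.0689). ACSL3 remained called at 0.19 ± 0.05 and 0.21 ± 0.05. Whether the GC trend is technical was not tested.

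The other genes of activation did not follow these synthetases. ACOT2, a mitochondrial thioesterase that releases free fatty acids from acyl-CoA, had 23.7, 22.5 and 24.3 CPM in shTMLHE 1, 13.7, 12 and 13.6 in shTMLHE 2, 39.4, 43.7 and 44.7 in CCNE1 overexpression, and 55.9, 63.8 and 62.3 in control. Both hairpin groups were below CCNE1 overexpression without overlap. ACOT2 fell by 0.86 ± 0.08 with shTMLHE 1 (edgeR, adjusted p = 1.88e-11) and by 1.70 ± 0.09 with shTMLHE 2 (6.95e-20), and by 0.48 and 0.95 with that trend removed. Since 37.3% of its 50-base stretches also occur in ACOT1, its counts are uncertain. ACSF2, a mitochondrial medium-chain synthetase, fell by 0.64 ± 0.06 and 1.25 ± 0.07 (0.51 and 0.77 with the trend removed). SLC27A1, a long-chain fatty acid transporter with synthetase activity, was picked after its values were seen: it spanned 39.3 to 42.8 CPM in shTMLHE 1, 12.5 to 14.7 in shTMLHE 2, 51 to 55.9 in CCNE1 overexpression and 58.7 to 62.3 in control. It fell by 0.41 ± 0.07 with shTMLHE 1 (-0.02 by total counts, not called) and by 2.01 ± 0.08 with shTMLHE 2 (1.38 with the trend removed). ACSL1, the main long-chain synthetase of liver and fat, had a value of -0.42 ± 0.21 with shTMLHE 1, which did not pass. It was called lower there in 3 of 25 alternative fits, among them without CCNE1 replicate 2 (-0.61) and with the trend removed (-0.52). With shTMLHE 2 ACSL1 rose by 0.55 ± 0.20, a call lost without CCNE1 replicate 2 (0.36) and with the trend removed (0.18). ACSL5, a synthetase of the outer mitochondrial membrane, was at 0 to 2.3 CPM and passed in neither comparison.

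Of the 17 tested mitochondrial genes, 12 fell and none rose with shTMLHE 1, and 14 fell and 1, ACADM, rose with shTMLHE 2. That is 70.6% and 88.2% called, beside 60.7% and 73% of all tested genes, of which 30.3% and 36.2% were lower. By total counts ACADM (0.32), ACADSB (0.94), ACAD9 (0.26), ACAD10 (0.51), ECHS1 (0.25), HADHB (0.32) and ECI2 (0.16) were called higher with shTMLHE 1. ACADVL, ACADS, HADH, HADHA, ECI1 and ETFB stayed called lower there. With shTMLHE 2 ACADM, ACADSB, HADHB, ECI2, ETFA and ETFDH were called higher by total counts. ACADVL, ACADS, ACAD10, ECHS1, HADH, HADHA, ECI1 and ETFB stayed called lower. By the smaller of its TMM changes in these comparisons, HADH fell most, followed by ECI1, ACADS, ACOT2 and ETFB. HADH, the short- and medium-chain 3-hydroxyacyl-CoA dehydrogenase, had 40.5, 38.8 and 38.4 CPM in shTMLHE 1, 28.4, 32.2 and 31.1 in shTMLHE 2, 91.3, 93.2 and 88.3 in CCNE1 overexpression, and 95.4, 104 and 95.4 in control. Every hairpin library was below every other library. HADH fell by 1.21 ± 0.06 with shTMLHE 1 (edgeR, adjusted p = 1.27e-19) and by 1.58 ± 0.06 with shTMLHE 2 (1.54e-23). Its transcript has 45.1% GC, among the 10% of genes whose median changes were 0.09 and 0.35. Its gene length, 12086 bases, also enters the removed trend. With the trend on GC content and length removed it fell by more, by 1.55 and 2.15. The parts of GC content and length in this shift were not separated. By total counts HADH fell by 0.82 and 1.05.

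ECI1, an isomerase needed for unsaturated chains, had 240, 228 and 243 CPM in shTMLHE 1, 163, 179 and 161 in shTMLHE 2, 514, 503 and 512 in CCNE1 overexpression, and 435, 452 and 422 in control. All groups were apart, with shTMLHE 2 lowest and CCNE1 overexpression highest. ECI1 fell by 1.10 ± 0.04 (edgeR, adjusted p = 9.71e-25) and by 1.60 ± 0.04 (2.63e-30) with shTMLHE 1 and shTMLHE 2, and by 0.65 and 0.59 with the trend removed. ACADS, the short-chain acyl-CoA dehydrogenase, had 20.6, 20.4 and 22.5 CPM in shTMLHE 1, 8.14, 5.84 and 6.9 in shTMLHE 2, 45.7, 41.9 and 46.5 in CCNE1 overexpression, and 42.2, 44.6 and 40.6 in control. Both hairpin groups stood clear below CCNE1 overexpression and control, which overlapped. ACADS fell by 1.08 ± 0.09 (adjusted p = 7.17e-13) and by 2.67 ± 0.10 (7.72e-24), and the value with shTMLHE 2 was the largest change of any member in that comparison. Its transcript is the richest of the members in GC, at 64.6%, and with the trend removed it fell by 0.51 and 1.41.

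**Figure D2:**
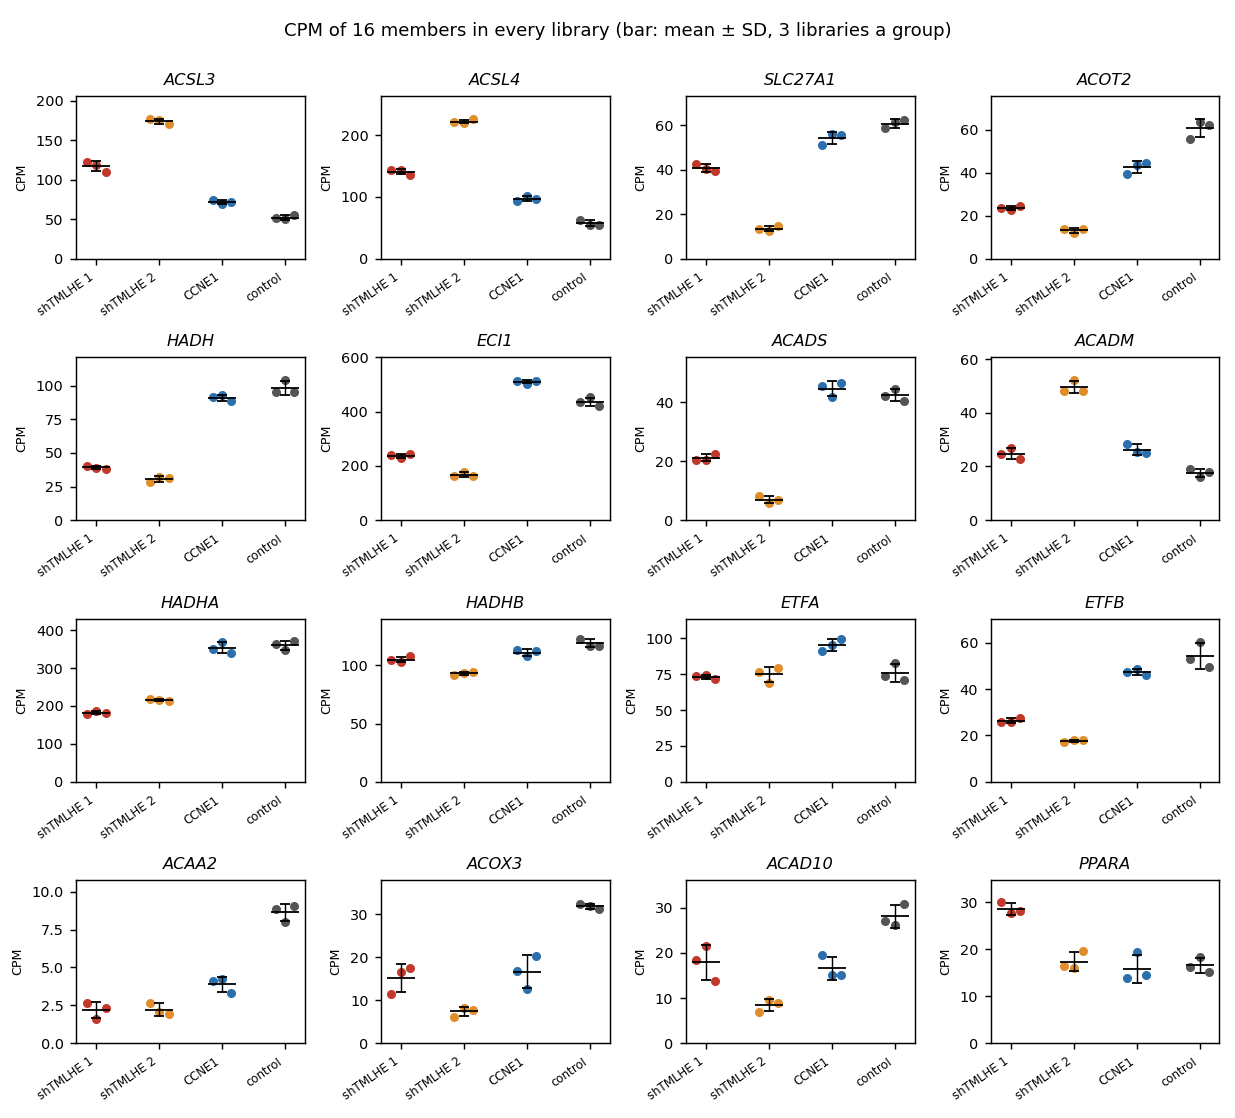
CPM (y axis, linear, starting at 0) of 16 members in each library, by group; points are libraries and bars the mean ± SD of 3. HADH, ECI1, ACADS, ACOT2 and ETFB are lower in every shTMLHE library than in any CCNE1 or control library, and ACSL3 and ACSL4 are higher.

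The other acyl-CoA dehydrogenases did not all move alike. ACADVL, for very long chains, fell by 0.60 ± 0.04 with shTMLHE 1 and by 0.99 ± 0.04 with shTMLHE 2 (edgeR, adjusted p = 1.06e-15 and 8.19e-23), or by 0.32 and 0.26 with the trend removed. ACADM, for medium chains, spanned 22.8 to 27 CPM in shTMLHE 1, 48.3 to 52.2 in shTMLHE 2, 24.9 to 28.5 in CCNE1 overexpression and 16.2 to 18.9 in control. Only the shTMLHE 2 libraries stood above CCNE1 overexpression: the difference was 0.92 ± 0.09 (adjusted p = 3.05e-12) with shTMLHE 2, and -0.08 ± 0.09 with shTMLHE 1 (95% interval -0.26 to 0.11), which did not pass. With the trend removed these were 0.25 and -0.29, both called and thus opposite in direction, and ACADM's transcript has 41% GC. ACADSB, for short branched chains, passed with neither hairpin in the TMM fit, at 1.74 to 5.7 CPM over all libraries. It was called higher by total counts, by 0.94 with shTMLHE 1 and 0.91 with shTMLHE 2. With shTMLHE 1 it also passed with upper quartile scaling (0.64), and without CCNE1 replicate 2 (0.77) or shTMLHE 1 replicate 1 (0.71). ACAD9, known also for assembly of respiratory complex I, fell by 0.60 ± 0.06 with shTMLHE 2, a call lost by total counts (-0.07). Its call with shTMLHE 1 (-0.14 ± 0.06) was lost without CCNE1 replicate 1 (-0.08) and without shTMLHE 1 replicate 1 or 3 (-0.13 each). That call was also lost without shTMLHE 2 replicate 1 or 3 (-0.14 each). ACAD10, a less studied dehydrogenase, had 18.4, 21.6 and 13.7 CPM in shTMLHE 1, 7.03, 9.66 and 8.81 in shTMLHE 2, 19.5, 15.1 and 15.2 in CCNE1 overexpression, and 27.1, 26.2 and 30.9 in control. Its shTMLHE 2 libraries were below all others and its shTMLHE 1 libraries overlapped CCNE1 overexpression. ACAD10 fell by 0.96 ± 0.15 with shTMLHE 2 and stood at 0.12 ± 0.14 with shTMLHE 1. By total counts it was called in opposite directions, at -0.43 with shTMLHE 2 and 0.51 with shTMLHE 1.

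For several of the remaining mitochondrial genes the call or its direction depended on the processing. ECHS1, the short-chain enoyl-CoA hydratase, fell by 0.15 ± 0.03 and 0.65 ± 0.03. With the trend on GC content and length removed it was instead higher by 0.43 and 0.41, both called. Its transcript GC content is 60.3%, and its gene length of 1617 bases is the shortest of the members. ECI2, a peroxisomal and mitochondrial isomerase with 29.8% of its exon bases in overlapping genes, fell by 0.24 ± 0.06 and 0.34 ± 0.06. DECR1, a 2,4-dienoyl-CoA reductase for polyunsaturated chains, fell by 0.30 ± 0.10 with shTMLHE 1, a call lost without shTMLHE 1 replicate 1 (-0.25), and by 0.59 ± 0.10 with shTMLHE 2. By total counts ECI2 was higher in both comparisons (0.16 and 0.19), ECHS1 was higher with shTMLHE 1 (0.25) and DECR1 was called in neither. ACAA2, the mitochondrial thiolase, had 2.63, 1.6 and 2.3 CPM in shTMLHE 1, 2.67, 2.07 and 1.91 in shTMLHE 2, 4.11, 4.24 and 3.29 in CCNE1 overexpression, and 8.85, 8.01 and 9.02 in control. Its hairpin groups overlapped each other and lay below CCNE1 overexpression, which lay below control. ACAA2 fell by 0.83 ± 0.25 (edgeR, adjusted p = 0.00458) and 0.79 ± 0.25 (0.00433), and neither call held by total counts (-0.44 and -0.27).

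The subunits of the trifunctional protein did not move alike. HADHA, which carries the long-chain hydratase and dehydrogenase, had 178, 187 and 180 CPM in shTMLHE 1, 218, 215 and 212 in shTMLHE 2, 351, 369 and 340 in CCNE1 overexpression, and 363, 347 and 371 in control. Both hairpin groups were far below CCNE1 overexpression, which overlapped control. HADHB, the thiolase subunit read from the other side of the shared stretch shown above, had 105, 103 and 108 CPM in shTMLHE 1, 92, 93.8 and 94.1 in shTMLHE 2, 113, 108 and 112 in CCNE1 overexpression, and 123, 117 and 117 in control. Its shTMLHE 1 libraries touched the range of CCNE1 overexpression and its shTMLHE 2 libraries lay below. HADHA fell by 0.96 ± 0.04 with shTMLHE 1 (edgeR, adjusted p = 5.8e-23) and by 0.72 ± 0.04 with shTMLHE 2 (1.6e-19). HADHB stood at -0.07 ± 0.05 with shTMLHE 1 (adjusted p = 0.186, 95% interval -0.17 to 0.02) and fell by 0.25 ± 0.05 with shTMLHE 2 (1.28e-05).

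Per kilobase, the ratio of HADHA to HADHB transcripts was 1.65, 1.77 and 1.63 in shTMLHE 1, 2.32, 2.23 and 2.20 in shTMLHE 2, 3.03, 3.35 and 2.97 in CCNE1 overexpression, and 2.88, 2.88 and 3.10 in control. A ratio within a library does not depend on the scaling between libraries. The groups were apart except that CCNE1 overexpression overlapped control. Against CCNE1 overexpression the ratio was lower by 0.89 on the log2 scale with shTMLHE 1 and by 0.47 with shTMLHE 2 (values of -0.89 and -0.47), each with a two-sided exact permutation p of 0.1, the smallest that 3 against 3 libraries allow. After removal of the trend on GC content and length, HADHA and HADHB stood at -0.93 and -0.13 with shTMLHE 1 but at -0.68 and -0.64 with shTMLHE 2. The gap between the subunits was thus nearly gone with shTMLHE 2 and kept its size with shTMLHE 1. These ratios were computed after the values were seen.

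**Figure D3:**
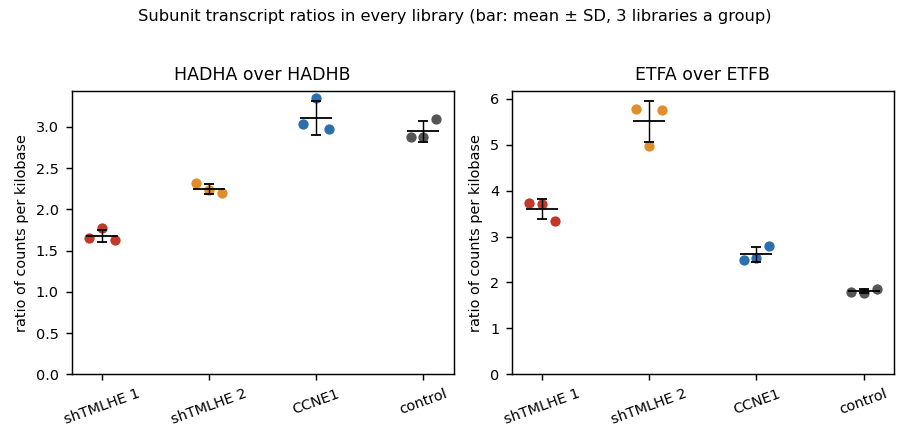
Ratio of subunit transcripts per kilobase (y axis, linear, starting at 0) in each library for HADHA over HADHB and for ETFA over ETFB; points are libraries, bars the mean ± SD of 3 per group. The HADHA ratio averaged 1.68 in shTMLHE 1, 2.25 in shTMLHE 2, 3.11 in CCNE1 overexpression and 2.95 in control, and the ETFA ratio 3.6, 5.51, 2.61 and 1.81.

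The electron transfer flavoprotein, a dimer of ETFA and ETFB that takes electrons from the acyl-CoA dehydrogenases, also changed unequally. ETFB had 25.6, 25.8 and 27.6 CPM in shTMLHE 1, 17.1, 17.9 and 17.8 in shTMLHE 2, 47.2, 48.6 and 46.1 in CCNE1 overexpression, and 53.1, 60.4 and 49.6 in control. ETFA had 73.8, 74.1 and 71.3 CPM in shTMLHE 1, 76.5, 69 and 79.1 in shTMLHE 2, 91, 95 and 99.5 in CCNE1 overexpression, and 73.5, 83.1 and 71.2 in control. ETFB was lowest in shTMLHE 2 and highest in control, whereas ETFA was highest in CCNE1 overexpression and similar in range elsewhere. ETFB fell by 0.85 ± 0.08 with shTMLHE 1 (edgeR, adjusted p = 1e-11) and by 1.42 ± 0.08 with shTMLHE 2 (2.69e-18), and by 0.93 and 1.55 with the trend removed. ETFA fell by 0.38 ± 0.06 and 0.35 ± 0.06 (7.19e-07 and 2.05e-06), or by 0.46 and 0.76 with the trend removed, but stood at 0.01 and 0.18 by total counts. The ratio of ETFA to ETFB per kilobase was higher by 0.46 and 1.08 on the log2 scale with shTMLHE 1 and shTMLHE 2, with an exact permutation p of 0.1 each and no overlap. ETFDH, which passes the electrons on to ubiquinone, had 8.05, 8.19 and 7.2 CPM in shTMLHE 1, 8.96, 6.6 and 7.85 in shTMLHE 2, 7.92, 6.77 and 10.4 in CCNE1 overexpression, and 8.5, 9.83 and 7.86 in control. All 4 groups overlapped, and the 95% intervals of its log2 difference from CCNE1 overexpression were -0.45 to 0.26 with shTMLHE 1 and -0.44 to 0.26 with shTMLHE 2. With the trend removed ETFDH was called lower with shTMLHE 2, at -0.45 ± 0.17 (edgeR, adjusted p = 0.0225), and by total counts higher, at 0.43, so its direction there depended on the processing.

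Of the 4 peroxisomal genes none passed with shTMLHE 1, and 2 fell with shTMLHE 2, beside 60.7% and 73% of all tested genes called. ACOX3, an oxidase of branched chains, had 11.5, 16.6 and 17.4 CPM in shTMLHE 1, 6.21, 8.15 and 7.8 in shTMLHE 2, 16.8, 12.7 and 20.3 in CCNE1 overexpression, and 32.3, 31.8 and 31.2 in control. Its shTMLHE 2 libraries were lowest, its control libraries highest, and the others overlapped. ACOX3 fell by 1.17 ± 0.16 with shTMLHE 2 (edgeR, adjusted p = 5.48e-08) and by 0.82 with the trend removed, and stood at -0.13 ± 0.15 with shTMLHE 1. ACAA1, the peroxisomal thiolase, 21.2% of whose exon bases lie in overlapping genes, fell by 1.02 ± 0.07 with shTMLHE 2 and had 0.00 ± 0.07 with shTMLHE 1 (95% interval -0.14 to 0.14). By total counts ACAA1 was called higher with shTMLHE 1 (0.39) and lower with shTMLHE 2 (-0.49). HSD17B4, the D-bifunctional protein, stood at -0.12 ± 0.08 and 0.10 ± 0.08, not called. At a transcript GC content of 38.6% and a gene length of 10664 bases, HSD17B4 fell by 0.75 and 1.06 once the trend was removed. It was called higher in both comparisons by total counts (0.27 and 0.62). EHHADH, the L-bifunctional enzyme, stood at -0.02 ± 0.24 and 0.44 ± 0.23, not called. With shTMLHE 2 EHHADH was called higher by total counts (0.97) and with upper quartile scaling (0.56).

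PPARA had 30, 27.8 and 28.1 CPM in shTMLHE 1, 16.4, 16 and 19.7 in shTMLHE 2, 13.9, 19.4 and 14.6 in CCNE1 overexpression, and 16.3, 18.3 and 15.1 in control. The shTMLHE 1 libraries were above all others, which overlapped. PPARA rose by 0.83 ± 0.12 with shTMLHE 1 (edgeR, adjusted p = 8.74e-08; 0.51 with the trend removed), and stood at 0.11 ± 0.12 with shTMLHE 2 (adjusted p = 0.403), a value that passed at 0.28 without CCNE1 replicate 2 and at 0.64 by total counts, and passed at -0.30 with the trend removed.

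Set against each other, shTMLHE 1 and shTMLHE 2 differed in 22 of the 29 members, 16 higher and 6 lower in shTMLHE 1, against a background of 60.3% of all tested genes, 31.3% higher and 29% lower. SLC27A1 and ACADS differed most, each by 1.60 (± 0.08 and ± 0.11), followed by ACAD10 at 1.08 ± 0.14, ACOX3 at 1.04 ± 0.16 and ACAA1 at 1.02 ± 0.07. ACADM (-1.0 ± 0.09), ACSL1 (-0.96 ± 0.20), ACSL4 (-0.66 ± 0.05), ACSL3 (-0.58 ± 0.05), HADHA (-0.24 ± 0.04) and HSD17B4 (-0.22 ± 0.08) were lower in shTMLHE 1 than in shTMLHE 2. PPARA was higher in shTMLHE 1 by 0.72 ± 0.11 (edgeR, adjusted p = 7.97e-07). With the trend removed ACSL3 (-0.03), ACSL4 (-0.08), ECHS1 (0.02), ACADVL (-0.06) and ECI1 (-0.06) were no longer called. SLC27A1 kept 1.11, ACADS 0.90, ACAA1 1.02 and HADHA -0.25, and HSD17B4 was called higher at 0.30. In that fit 17 members were higher and 3 lower, beside 26% and 22% of all tested genes. By total counts 14 were higher and 8 lower, beside 26% and 35.5%. HADHB (0.04) and DECR1 (0.16) lost their calls there, while ETFA (-0.17) and EHHADH (-0.60) were called lower. The call of DECR1 (0.29 ± 0.10) was lost without shTMLHE 2 replicate 1 (0.23) or 3 (0.25), and the call of HSD17B4 without shTMLHE 1 replicate 2 (-0.18) or shTMLHE 2 replicate 2 (-0.16).

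Over the 29 members, Spearman's correlation of fold change with transcript GC content was -0.56 with shTMLHE 1, -0.82 with shTMLHE 2 and -0.55 with CCNE1 overexpression, and over all tested genes -0.37, -0.64 and -0.38. These correlations are across genes that share libraries and depth, and are given as a description. In the 10% of genes highest in GC the median log2 fold change was -0.45 with shTMLHE 1 and -1.27 with shTMLHE 2. Removing the trend left 20 members called with shTMLHE 1, 3 higher and 17 lower, and 24 with shTMLHE 2, 3 higher and 21 lower. In that fit 56.8% of all tested genes were called with shTMLHE 1, 27.7% higher and 29.1% lower, and 63.1% with shTMLHE 2, 30.2% higher and 32.9% lower. Of the calls made without this step, 15 of 18 and 20 of 23 stayed with the same direction, and 1 in each comparison, ECHS1, turned.

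**Figure D4:**
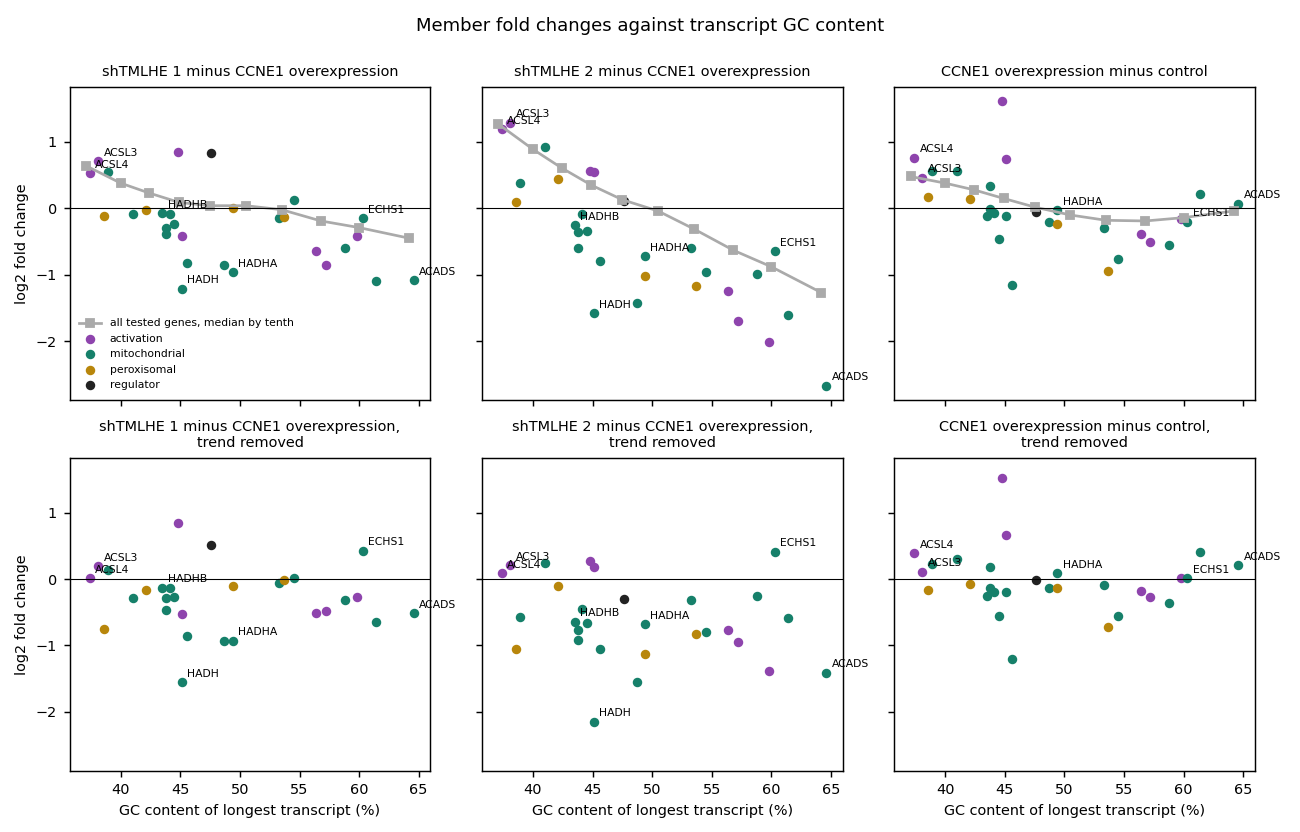
Log2 fold change (y axis) of the 29 tested members against the GC content of their longest transcript (x axis, percent), as counted (top) and with the trend on GC content and gene length removed (bottom); grey squares are medians of all tested genes in 10 classes of GC content. ACSL3 and ACSL4 lie by the grey line with both hairpins and near 0 once the trend is removed, while HADH lies far under the line.

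With CCNE1 overexpression, 17 of the 29 members were called, 6 higher and 11 lower than in control, against a background of 44.2% of all tested genes, 25.1% higher and 19.1% lower. Their median log2 fold change was -0.07, and that of all tested genes 0.05. ACAA2, whose values are given above, fell most, by 1.15 ± 0.23 (edgeR, adjusted p = 8.6e-05), and every CCNE1 library was below every control library. ACOX3 fell by 0.94 ± 0.14 (2.35e-06) and ACAD10 by 0.76 ± 0.14 (2.3e-05), again without overlap. ACSL4 rose by 0.76 ± 0.05 (2.28e-14), or by 0.39 with the trend removed. These 4 were the called members with the largest changes.

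The other called members changed by less than these in size. ACSL1 rose by 0.75 ± 0.23, a call lost without CCNE1 replicate 3 (0.58), ACADM by 0.57 ± 0.10, ACSL3 by 0.46 ± 0.06, ETFA by 0.33 ± 0.06 and ECI1 by 0.22 ± 0.04. ACADVL fell by 0.55 ± 0.04, ACOT2 by 0.51 ± 0.08, ECI2 by 0.46 ± 0.06, ACSF2 by 0.38 ± 0.06, ACAD9 by 0.30 ± 0.06, ACAA1 by 0.24 ± 0.07, and ECHS1 and ETFB by 0.20 each. The call of ETFB was lost without control replicate 2 (-0.12), CCNE1 replicate 1 (-0.20) or CCNE1 replicate 3 (-0.18), and with the trend removed ACSL3 (0.11), ACAD9 (-0.09), ECHS1 (0.01), ETFB (-0.13) and ACAA1 (-0.14) were not called. HADH, HADHA, HADHB, ACADS and PPARA did not pass, with values of -0.11, -0.03, -0.11, 0.07 and -0.05. With the trend removed HADH (-0.20) and HADHB (-0.25) were called lower and HADHA (0.09) higher. HADHB was called lower in 8 of 25 alternative fits. ACSL5 stood at 1.61 ± 0.71 and passed without control replicate 2 (3.01) or CCNE1 replicate 1 (2.00), at no more than 1.54 CPM in these groups.

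The rest of the pathway was read from a list of 84 further genes, of which 67 were tested. Their values, here and for the carnitine shuttle and the regulators below, are from the TMM fit alone. Whether they hold by total counts or with the GC and length trend removed was not examined, although the members' calls depended on both. With shTMLHE 1, 12 rose and 32 fell, with shTMLHE 2, 17 rose and 28 fell, and with CCNE1 overexpression, 11 rose and 22 fell; their shares called, 65.7%, 67.2% and 49.3%, stand beside backgrounds of 60.7%, 73% and 44.2%. ACOT7, a cytosolic acyl-CoA thioesterase, had 172, 172 and 178 CPM in shTMLHE 1, 42.7, 43.2 and 44.6 in shTMLHE 2, 350, 333 and 336 in CCNE1 overexpression, and 275, 283 and 282 in control. It fell by 0.96 ± 0.04 and 2.96 ± 0.04 with shTMLHE 1 and shTMLHE 2, and every group stood apart. MECR, the enoyl reductase of mitochondrial fatty acid synthesis, fell by 1.14 ± 0.06 and 2.08 ± 0.06. HSD17B10, a short-chain hydroxyacyl-CoA dehydrogenase that is also part of mitochondrial RNase P, fell by 1.12 ± 0.04 with shTMLHE 1, to 113 ± 6.07 CPM against 244 ± 7.26 in CCNE1 overexpression (SD, n = 3 each). RXRB, a partner receptor of PPARA, fell by 1.46 ± 0.05 with shTMLHE 2 and was higher by 1.28 ± 0.05 in shTMLHE 1 than in shTMLHE 2. DBI, an acyl-CoA binding protein, averaged 71.4 ± 2.11 CPM in shTMLHE 1 and 134 ± 0.605 in shTMLHE 2. With CCNE1 overexpression, the thiolase ACAT1 rose by 0.64 ± 0.07, the peroxisomal transporter ABCD3 rose by 0.79 ± 0.10 and the peroxisomal import receptor PEX5 fell by 0.49 ± 0.06.

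Of the 7 genes listed for the carnitine shuttle 6 were tested, of which 2 rose and 3 fell with shTMLHE 1, 1 rose and 2 fell with shTMLHE 2, and 3 fell with CCNE1 overexpression. The shares called, 83.3%, 50% and 50%, stand beside 60.7%, 73% and 44.2% of all tested genes. CPT1A, which forms acyl-carnitine at the outer membrane, had 9.2, 8.3 and 10.6 CPM in shTMLHE 1, 6.7, 5.61 and 4.77 in shTMLHE 2, 6.5, 3.58 and 3.87 in CCNE1 overexpression, and 6.62, 3.09 and 3.97 in control. Only shTMLHE 1 stood above the other groups: CPT1A rose by 1.03 ± 0.23 there (edgeR, adjusted p = 1.91e-04), against 0.32 ± 0.23 with shTMLHE 2, which did not pass. SLC25A20, the carnitine-acylcarnitine carrier, had 3.23, 1.71 and 3.69 CPM in shTMLHE 1, 9.13, 9.05 and 7.96 in shTMLHE 2, 8.59, 13.4 and 10.5 in CCNE1 overexpression, and 16.7, 16.8 and 14 in control. It fell by 1.92 ± 0.20 with shTMLHE 1 (1.19e-10), stood at -0.32 ± 0.18 with shTMLHE 2, and fell by 0.54 ± 0.17 with CCNE1 overexpression. CPT2, which frees the acyl group inside, passed with neither hairpin (-0.37 ± 0.19 and -0.19 ± 0.18) and fell by 0.60 ± 0.18 with CCNE1 overexpression. The other tested genes of this list were called in the same direction with both hairpins. CRAT, which makes short-chain acyl-carnitines, fell by 0.89 ± 0.07 with shTMLHE 1 and by 2.26 ± 0.08 with shTMLHE 2, and by 0.23 ± 0.07 with CCNE1 overexpression. CPT1C, a relative of CPT1A known mainly from brain, fell by 1.91 ± 0.18 and by 2.55 ± 0.19 with shTMLHE 1 and shTMLHE 2. CROT, which makes carnitine esters of medium-chain acyl groups in peroxisomes, rose by 1.36 ± 0.15 and by 1.14 ± 0.15. CPT1B was not tested. SLC25A20 and CPT1A differed between the hairpins themselves, by -1.60 ± 0.20 and 0.71 ± 0.22 in shTMLHE 1 against shTMLHE 2 (8.01e-09 and 0.00526).

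Beside PPARA, 12 of 17 listed regulators and PPAR targets were tested, of which 5 rose and 6 fell with shTMLHE 1 and 5 rose and 7 fell with shTMLHE 2. The shares called were 91.7% and 100% of these 12, beside 60.7% and 73% of all tested genes. ANGPTL4, a lipoprotein lipase inhibitor induced by PPARs and picked after its values were seen, had 7.12, 6.86 and 6.96 CPM in shTMLHE 1, 1.32, 2.07 and 1.51 in shTMLHE 2, 0.448, 1.32 and 0.634 in CCNE1 overexpression, and 0.418, 0.238 and 1.24 in control. It was highest in shTMLHE 1, as PPARA was, and rose by 3.06 there and by 0.97 with shTMLHE 2.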

How the data were processed

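Total RNA was sequenced in 12 Ovcar8 libraries, and groups follow the labels. Trizol and column extraction with DNase preceded NEBNext Ultra 2 library preparation, per the labels' protocols. STAR 2.6.1, DESeq2 and GRCh38 were named per the submitters' processing notes. The authors deposited whole-number read counts per gene without normalization, and FPKM, used in alternatives only. The sources used here give no counting program, strand setting or treatment of multiply matching reads, so overlapping genes cannot be told apart. Gene lengths in the table equalled those of GENCODE release 29, which gave transcript GC content and shared bases.

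Genes were filtered by filterByExpr (15378 kept, 43357 removed), scaled by TMM and fitted over all 12 libraries with edgeR 4.0.16 (robust quasi-likelihood, 1 mean per group, 8 residual degrees of freedom; limma 3.58.1, DESeq2 1.42.0 and R 4.3.3 for alternatives). P-values were adjusted by Benjamini-Hochberg over all tested genes, threshold 0.05; the fit was tested on simulated data. SE is the absolute log2 fold change divided by the square root of F. Nothing in the labels states separate cultures for the replicates; the p-values therefore measure only spread between libraries, which may be technical; replicates within groups differed beyond sampling noise. Library totals were 14945893 to 16302525 counts in shTMLHE 1, 14558444 to 19945180 in shTMLHE 2, 15814583 to 21457503 in CCNE1 overexpression and 14054101 to 16616963 in control. GC and length trends were removed with per-library spline offsets of 5 degrees of freedom each.

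The members and lists were chosen with earlier results of these data known. Library values are given for the 5 largest rises and 5 largest falls called in the same direction with both hairpins (only 2 rises existed), the 4 largest changes with CCNE1 overexpression, HADHA, HADHB, ETFA, ETFB, ETFDH and PPARA. In the TMM fit no member was called in opposite directions with the hairpins. With the GC and length trend removed ACADM and PPARA were, and by total counts ACAD10, ECHS1 and ACAA1 were. CRAT, CPT1C and CROT were named after their values were seen, to complete their list. Outside the members, the 3 smallest p per comparison, CPT1A, CPT2 and SLC25A20 are named. A count of members changed in the same direction with both hairpins was planned but not made, because both comparisons share the CCNE1 libraries.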

Additional observations from a re-analysis of the deposited data

How the results depend on the processing

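The counts of called members kept within 1.5 times of 18 (shTMLHE 1), 23 (shTMLHE 2), 22 (shTMLHE 1 against shTMLHE 2) and 17 (CCNE1 overexpression) under every alternative run except a fold limit: at least 1.5-fold changes left 11 members with shTMLHE 1, 11 between the hairpins and 5 with CCNE1 overexpression (37.5%, 35.7% and 16.9% of all tested genes), fewer by construction. Leaving out each library in turn gave 17 to 20, 23 to 24, 21 to 22 and 16 to 18. Among members called under at least 1 of the settings compared, the sign turned by total counts with shTMLHE 1 for ACADM (0.32), ACAD9 (0.26), ECHS1 (0.25), HADHB (0.32), ECI2 (0.16), DECR1 (0.10), ETFA (0.01) and HSD17B4 (0.27), and with shTMLHE 2 for HADHB (0.28), ECI2 (0.19), ETFA (0.18) and ETFDH (0.43); the shift of all genes by 0.39 and 0.53 is part of that scaling. It also turned for ACOX3, EHHADH and ETFDH with shTMLHE 1 and ECI2 between the hairpins, called under neither. Removing the GC and length trend turned the sign, among members called in at least 1 fit, for ECHS1 (0.43 with shTMLHE 1, 0.41 with shTMLHE 2, 0.01 with CCNE1 overexpression), HSD17B4 (-1.06) and PPARA (-0.30) with shTMLHE 2, HADHA (0.09) with CCNE1 overexpression, and between the hairpins for ACADVL (-0.06), ECI1 (-0.06), ETFA (0.30) and HSD17B4 (0.30); called in neither fit, it turned for ACADSB and EHHADH with shTMLHE 2, EHHADH, HSD17B4 and SLC27A1 with CCNE1 overexpression and ACAA2 between the hairpins. The same step with the replicate block gave ECHS1 0.43, 0.41 and 0.01, HSD17B4 -1.05, PPARA -0.29, ACADVL -0.06, ECI1 -0.06, ETFA 0.30 and HSD17B4 0.31. The replicate numbers did not pair the libraries: deviations of the 18 same-numbered pairs correlated at -0.05 to 0.03, and those of the other 36 pairs at -0.03 to 0.03. With the replicate number as a block the counts were 18, 23, 22 and 17. Without a filter on low counts 20.6% to 36.4% of all genes were called. The planned count over both hairpins was not run. Depth limits ACAD11, ACSL5, ACSL1, ACADSB, ACAA2 and EHHADH, whose intervals were wide.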
